A study of Mus musculus with 8 samples.

Results

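The Ikaros family is a small group of C2H2 zinc finger transcription factors that act mainly in lymphocytes. Its genes were taken by name from the gene count table: *Ikzf1* encodes Ikaros, *Ikzf2* Helios, *Ikzf3* Aiolos, *Ikzf4* Eos and *Ikzf5* Pegasus. All 5 were among the 11911 genes listed, and all 5 were among the 11317 that passed a filter on low counts and were tested. The samples were iT_regs_, which are T_regs_ induced in culture from naïve CD4+ T cells, and RNA-seq of total RNA depleted of ribosomal RNA was used to ask how loss of TDRD3, a transcriptional coregulator, alters their RNA. Naïve splenic CD4+ T cells came from mice with *Foxp3 YFP-Cre* alone, labelled WT, or with floxed *Tdrd3* in addition, that is *Tdrd3 fl/fl/Foxp3 YFP-Cre*, labelled KO, both on a C57BL/6J background. They were treated for 36 hours with TGF-β, anti-CD3, anti-CD28, anti–IFN-γ and anti–IL-4. Each genotype had 4 libraries, more replicates than the methods name. In both genotypes YFP and Cre are expressed from the *Foxp3* locus. Cre is therefore meant to act in cells that have switched *Foxp3* on, and in which cells it acted was not tested. A step that sorts YFP+ cells ahead of RNA extraction is not described. No age of the mice is given for this experiment. In such bulk samples, fewer cells of a type and less RNA per cell cannot be told apart.

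Ikaros family proteins bind DNA through zinc fingers in their N-terminal part and pair with each other through fingers at the C terminus, so that members can form mixed dimers. They recruit chromatin regulators, above all the NuRD complex, and many of their known targets in T cells, such as *Il2*, are genes that they silence. In T_regs_, Helios is associated with a stable suppressive state and Eos works as a partner of Foxp3 in gene silencing.

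The estimated counts of the listed genes summed to 14575453, 13713913, 14370152 and 14108975 in WT1 to WT4 and to 13782994, 16001676, 13258239 and 14730191 in KO1 to KO4. Levels are given as CPM, normalized counts scaled to 1000000 per library, and 3 counts, taken as the least a library can show, were 0.188 to 0.225 CPM. The 5 genes together had 15194 to 17860 counts in a library, far above that limit, which covers counting error only.

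Some libraries stood apart. Of the 28 pairs of libraries, KO1 and KO4 were the most alike, with a chi-square per degree of freedom of 2.59 between their counts, closely followed by WT1 and WT2. On the first principal component over the 11317 tested genes, which held 24.5% of the variance, they lay at −17.4 and −18.1, and the other 6 libraries lay between −3.36 and 11.4. On the second component (17.3%), WT3 and WT4 lay at −16.3 and −13.1 and WT1 and WT2 at 9.13 and 12.8. The library labelled WT3 differed from the other controls in a further way. It had 11.3 CPM of *Cd8a*, which encodes a chain of the CD8 coreceptor, where the other 7 libraries had 0.436 to 1.37. The log2 fold changes of the members, and of some other genes, are therefore also given without KO1 and KO4 and without that control.

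*Tdrd3* (ENSMUSG00000022019), the floxed gene, had 18.8, 15.1, 9.95 and 17.7 CPM in WT1 to WT4 and 13.7, 10.7, 12.9 and 11.1 CPM in KO1 to KO4. The library labelled WT3 thus had less *Tdrd3* RNA than every KO library, which goes against its label. In *Foxp3*, at 107 CPM, and on the first principal component it lay above every KO library, as did WT1 and WT2. The log2 fold change of *Tdrd3* between KO and WT was −0.35 (standard error 0.155; adjusted p = 0.496, edgeR quasi-likelihood test, Benjamini-Hochberg adjusted). Without that library it was −0.51 (adjusted p = 0.115, same edgeR test; over the alternatives from 0.115 to 1.00), and without WT1 it was −0.23. Since the table holds gene totals, the floxed exons could not be read on their own.

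No Ikaros family gene passed the test across all genes. With the quasi-likelihood test of edgeR and Benjamini-Hochberg adjustment, p was below 0.05 for 0 of the 5 members and for 30 of the 11317 tested genes (0.265%), and the members' number was also 0 with DESeq2 and with limma voom. At an unadjusted P below 0.05 together with a fold change of at least 1.2, the members again numbered 0, against 3.47% of tested genes. The study gives this cutoff in a figure legend and a larger fold change in its methods. At an unadjusted P below 0.05 alone, 3 of the 5, *Ikzf1*, *Ikzf2* and *Ikzf4*, were lower in KO iT_regs_, as were 4.91% of tested genes, and this number was also 3 with DESeq2 and with limma voom. It was 1 without KO1, where *Ikzf1* was left, and 1 without KO1 and KO4, where *Ikzf2* was left. The 4.91% holds for edgeR with all libraries. The share of all tested genes at that P alone was not counted for the other fits. The numbers of members in those fits therefore cannot be set against a share. Genes that also had a fold change of at least 1.2, in either direction, numbered 393 in edgeR with all libraries, a stricter cutoff that no member met. They numbered 359 with DESeq2, 474 with limma voom, 302 without KO1 and 235 without KO1 and KO4. *Ikzf1* alone had every KO library below every WT library, a pattern shared by 298 tested genes (2.63%). The number of members with this pattern was 2 without KO3, without KO4 and without KO1 and KO4, where 4.42, 3.54 and 6.22% of tested genes had it. The median log2 fold change of the 5 members was −0.10, and over all tested genes it was 0.00, with 49.4% of genes below 0.

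**Figure D1:**
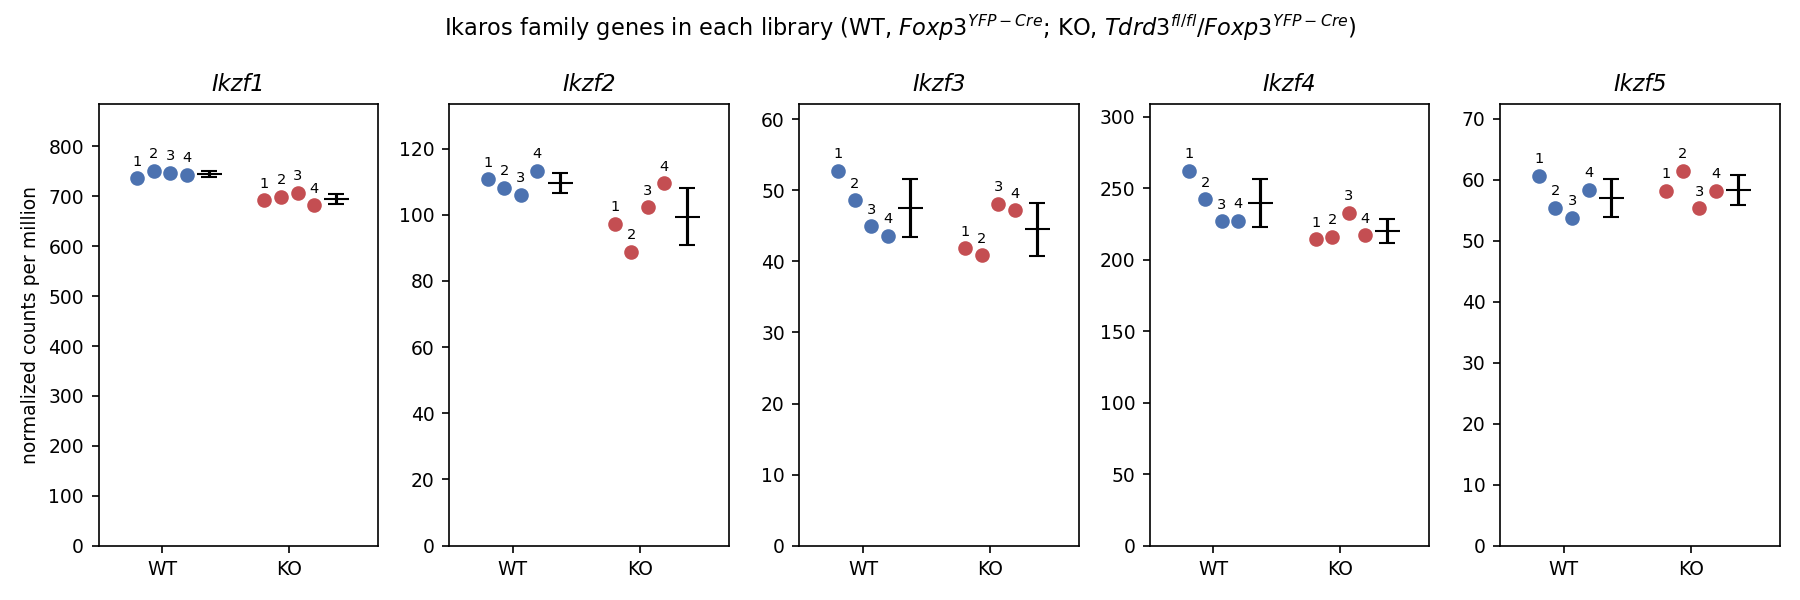
Normalized counts (CPM) of each Ikaros family gene in each library, with the replicate number above each point and the mean ± SD of the 4 WT or KO libraries beside them; each vertical axis starts at 0. For *Ikzf1* the WT libraries lie between 736 and 751 and the KO libraries between 682 and 707, and for the other 4 genes the genotypes overlap.

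*Ikzf1* (ENSMUSG00000018654) encodes Ikaros, the founding member, which is needed for the development of lymphocytes and restrains T cell activation. The gene lies at chr11:11634980-11722926 of GRCm39 on the plus strand. It had 736, 751, 747 and 743 CPM in WT1 to WT4 and 692, 699, 707 and 682 CPM in KO1 to KO4. All 4 KO libraries lay below the lowest control, and the replicates of a genotype lay close together. The coefficient of variation was 0.809% in WT and 1.497% in KO iT_regs_, where counting error alone gives 0.973% and 0.998% at 9404 to 11151 counts per library. The mean was 744 ± 6.02 CPM (SD, n = 4) in WT and 695 ± 10.4 CPM (SD, n = 4) in KO iT_regs_. This is a log2 fold change of −0.10 (standard error 0.0334) with a 95% confidence interval from −0.17 to −0.03. In percent, the level was different by −6.63, with an interval from −11.0 to −1.98. The adjusted p of *Ikzf1* was 0.286 and its unadjusted P was 0.00808 (edgeR quasi-likelihood test, Benjamini-Hochberg adjusted), and 2.82% of tested genes had a P as low or lower. The two-sided exact permutation test gave p = 0.0286 for *Ikzf1*, the smallest that 70 arrangements of 4 and 4 libraries allow. Among 17 alternative settings, the log2 fold change ranged from −0.11 to −0.08 and the adjusted p from 0.0705, with DESeq2, to 1.00. Without KO1 and KO4 the log2 fold change of *Ikzf1* was −0.08 (unadjusted P = 0.0892, edgeR), and without the library labelled WT3 it was −0.10.

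*Ikzf3* (ENSMUSG00000018168) encodes Aiolos, which is induced in activated lymphocytes and helps to silence *Il2*. It lies at chr11:98355728-98436857 on the minus strand of the same chromosome as *Ikzf1*. *Ikzf3* had 52.7, 48.6, 44.9 and 43.6 CPM in WT1 to WT4 and 41.8, 40.9, 48.1 and 47.2 CPM in KO1 to KO4. KO1 and KO2 were below all controls, and replicates 3 and 4 lay within the range of the controls. The mean was 47.5 ± 4.08 CPM (SD, n = 4) in WT and 44.5 ± 3.68 CPM (SD, n = 4) in KO iT_regs_, a difference smaller than either SD. The log2 fold change of *Ikzf3* was −0.09 (standard error 0.0736; adjusted p = 0.796, edgeR quasi-likelihood test, Benjamini-Hochberg adjusted; two-sided exact permutation test, p = 0.314). Its 95% confidence interval ran from −0.25 to 0.06, or from −15.8 to 4.21 in percent. The log2 fold change was −0.10 without KO1 and KO4 and −0.12 without the library labelled WT3, and it was smallest, at −0.04, without WT1 and next at −0.06 without KO2.

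*Ikzf2* (ENSMUSG00000025997) encodes Helios, which is abundant in T_regs_ that arise in the thymus. It lies at chr1:69570373-69726404 on the minus strand. *Ikzf2* had 111, 108, 106 and 113 CPM in WT1 to WT4 and 97.3, 88.9, 102 and 109 CPM in KO1 to KO4. KO2 was the lowest, 3 of the 4 KO libraries lay below the lowest control, and replicate 4 lay within the controls. The mean was 110 ± 3.11 CPM (SD, n = 4) in WT and 99.5 ± 8.65 CPM (SD, n = 4) in KO iT_regs_. The coefficient of variation of *Ikzf2* was 2.83% in controls, close to the 2.54% from counting error, and 8.70% in KO iT_regs_, against 2.64%. The log2 fold change of *Ikzf2* was −0.14 (standard error 0.0565) with a 95% confidence interval from −0.26 to −0.02 (unadjusted P = 0.0226, adjusted p = 0.433, edgeR quasi-likelihood test, Benjamini-Hochberg adjusted; two-sided exact permutation test, p = 0.0857). Replicates 1 and 4 of KO, the pair of libraries most alike in their counts as a whole, differed in *Ikzf2*. Without both of them the log2 fold change was −0.20 (unadjusted P = 0.00768, adjusted p = 1.00, same edgeR test); over the 17 alternatives its adjusted p ranged from 0.314 to 1.00. Without the library labelled WT3 it was −0.16, and without KO2 it was −0.09 (unadjusted P = 0.111, edgeR).

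*Ikzf4* (ENSMUSG00000002578) encodes Eos, the member that acts with Foxp3 to repress genes in T_regs_. It lies at chr10:128466712-128505227 on the minus strand. *Ikzf4* had 262, 242, 227 and 227 CPM in WT1 to WT4 and 214, 216, 233 and 217 CPM in KO1 to KO4. WT1 was the highest library, and KO1, KO2 and KO4 lay below every control. KO3 stood apart from the other 3, above 2 of the controls. The mean was 240 ± 16.6 CPM (SD, n = 4) in WT and 220 ± 8.55 CPM (SD, n = 4) in KO iT_regs_. For *Ikzf4* the log2 fold change was −0.12 (standard error 0.0485) with a 95% confidence interval from −0.22 to −0.02 (unadjusted P = 0.0205, adjusted p = 0.418, edgeR quasi-likelihood test, Benjamini-Hochberg adjusted; two-sided exact permutation test, p = 0.0857). Leaving out WT1 moved it most, to −0.08 (unadjusted P = 0.117, edgeR). It was −0.09 (unadjusted P = 0.152, edgeR) without KO1 and KO4 and −0.15 without the library labelled WT3.

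*Ikzf5* (ENSMUSG00000040167) encodes Pegasus, the most divergent member, which is expressed in many tissues. It lies at chr7:130990381-131012250 on the minus strand. *Ikzf5* had 60.7, 55.4, 53.8 and 58.4 CPM in WT1 to WT4 and 58.2, 61.4, 55.3 and 58.2 CPM in KO1 to KO4. The genotypes overlapped over most of their range, and KO2 was the highest of all libraries. The mean was 57.0 ± 3.08 CPM (SD, n = 4) in WT and 58.3 ± 2.50 CPM (SD, n = 4) in KO iT_regs_. For *Ikzf5* the log2 fold change was 0.03 (standard error 0.0590) with a 95% confidence interval from −0.09 to 0.16 (adjusted p = 0.929, edgeR quasi-likelihood test, Benjamini-Hochberg adjusted; two-sided exact permutation test, p = 0.571). Without KO1 and KO4 it was again 0.03, and without the library labelled WT3 it was 0.00.

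The levels of the 5 genes were compared with each other per length of merged exons, as CPM per kb. On this scale *Ikzf1* was the most abundant, at 76.0 ± 0.615 (SD, n = 4) in WT and 71.0 ± 1.06 (SD, n = 4) in KO iT_regs_, above 96.7% of tested genes. *Ikzf4* came next, at 34.1 ± 2.37 and 31.3 ± 1.22 (SD, n = 4 each). Both lay well above the other 3 genes in every library. The per-length level of *Ikzf5* was 9.02 ± 0.486 in WT and 9.21 ± 0.395 in KO iT_regs_, that of *Ikzf2* was 8.38 ± 0.238 and 7.61 ± 0.662, and that of *Ikzf3* was 5.42 ± 0.467 and 5.08 ± 0.420 (SD, n = 4 each). *Ikzf5* and *Ikzf2* were neighbours whose WT libraries overlapped on this scale, from 8.50 to 9.59 and from 8.12 to 8.66, and with the longest annotated transcript as the length *Ikzf2* was ahead, at 10.9 against 10.5 over the 8 libraries. *Ikzf3* was the lowest by merged exons in every library, and near the middle of all tested genes, at 47.2% of them. Its place depended on the length used: with the longest transcript its mean was 9.98, close to the other pair, and it lay above *Ikzf5* in WT1, at 11.4 against 11.1, in WT2 and in KO3.

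**Figure D2:**
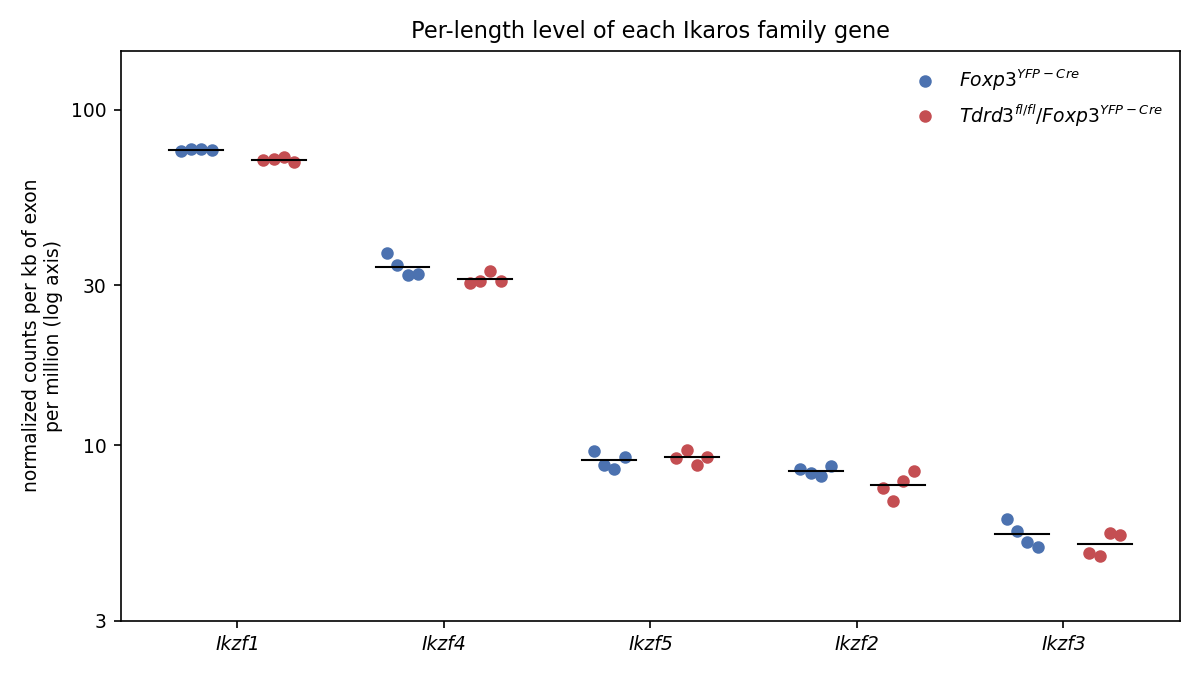
Normalized CPM per kb of exon for each Ikaros family gene on a log axis; each point is a library and each line the mean of the 4 libraries of a genotype. *Ikzf1*, at 69.7 to 76.7, and *Ikzf4*, at 30.5 to 37.3, stand above *Ikzf5*, *Ikzf2* and *Ikzf3*.

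The makeup of the family was then compared between genotypes. As a share of the summed per-length level of the 5 genes, *Ikzf1* made up 57.2 ± 1.51% in WT and 57.1 ± 0.718% in KO iT_regs_ (SD, n = 4 each), and *Ikzf4* 25.6 ± 1.22% and 25.2 ± 0.535%. The shares of *Ikzf2* were 6.31 ± 0.201% and 6.12 ± 0.518%, and those of *Ikzf3* 4.07 ± 0.265% and 4.09 ± 0.291%. For these 4 genes the means of the genotypes differed by less than the SD of the WT libraries. The share of *Ikzf5* was 6.78 ± 0.285% in WT and 7.42 ± 0.417% in KO iT_regs_, with KO1, KO2 and KO4, at 7.50, 7.87 and 7.45%, above every control and KO3, at 6.86%, inside their range of 6.52 to 7.04%. The summed per-length level itself was 137, 134, 130 and 131 in WT1 to WT4 and 123, 123, 127 and 124 in KO1 to KO4, so that the genotypes did not overlap. Most of this sum is *Ikzf1* and *Ikzf4*, and it was not tested. Every KO library lay below every WT library in 2.63% of single tested genes, and among the members in *Ikzf1* alone.

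*Foxp3*, which encodes the factor that defines T_regs_ and whose locus drives Cre, had 117, 122, 107 and 93.8 CPM in WT1 to WT4 and 77.2, 105, 93.2 and 78.1 CPM in KO1 to KO4. KO1 and KO4 were the lowest, and replicate 2 lay above the lowest control. Its log2 fold change was −0.31 (standard error 0.0880; adjusted p = 0.152, edgeR quasi-likelihood test, Benjamini-Hochberg adjusted). The adjusted p was below 0.05 with limma voom (0.0416), without WT4 (0.0337, edgeR) and without KO2 (0.0105, edgeR), and ranged from 0.0105 to 1.00 over the 17 alternatives. Without KO1 and KO4 the log2 fold change of *Foxp3* was −0.15 (unadjusted P = 0.111, edgeR). Exons of *Foxp3* overlap those of *Flicr* on the same strand and of *Ccdc22*, *Gm36995* and *Ppp1r3f* on the other strand. The log2 ratio of each Ikaros family gene to *Foxp3* in the same library was then compared between genotypes, a comparison chosen after the data were seen. Because *Foxp3* itself was lower, a gene with equal levels in both genotypes would have a difference of 0.32 on this scale. The difference of the mean ratio, KO minus WT, was 0.22 for *Ikzf1*, 0.17 for *Ikzf2*, 0.23 for *Ikzf3*, 0.20 for *Ikzf4* and 0.35 for *Ikzf5*. Of these, 4 lay below that value and that of *Ikzf5* lay above it, which only restates the direction of each member's own difference between genotypes. With single libraries left out, the difference ranged from 0.16 to 0.30 for *Ikzf1*, 0.07 to 0.31 for *Ikzf2*, 0.14 to 0.35 for *Ikzf3*, 0.15 to 0.29 for *Ikzf4* and 0.28 to 0.43 for *Ikzf5*, while *Foxp3* itself also moved.

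The partners and regulators of the family are known from other work, and the lists here were described by counts alone. The NuRD complex, which Ikaros, Helios and Aiolos bring to DNA, had 14 of 14 genes tested, with 0 at an adjusted p below 0.05 by the quasi-likelihood test of edgeR, by DESeq2 and by limma voom, and 1 lower at an unadjusted P below 0.05 in each, where 4.91% of all tested genes were lower in edgeR. With single libraries left out, the number at that P in either direction in edgeR ranged from 0, without WT2, WT3 or KO3, to 2, without KO2. With all libraries, 9.30% of all tested genes were at that P in either direction. Its median log2 fold change was −0.02, where that of all tested genes was 0.00. *Chd4*, the remodeling ATPase of the complex, had 931 ± 10.8 CPM (SD, n = 4) in WT and 922 ± 4.65 CPM (SD, n = 4) in KO iT_regs_, and the 95% confidence interval of its log2 fold change ran from −0.08 to 0.05. *Rbbp7*, a histone-binding subunit, had 442 ± 13.9 and 435 ± 17.2 CPM (SD, n = 4 each). *Mbd2*, a subunit that binds methylated DNA, was the gene with an unadjusted P below 0.05, at 172 ± 19.4 CPM (SD, n = 4) in WT and 153 ± 8.89 CPM (SD, n = 4) in KO iT_regs_. Its log2 fold change was −0.17 (unadjusted P = 0.0159, adjusted p = 0.380, edgeR quasi-likelihood test, Benjamini-Hochberg adjusted), and the genotypes overlapped; its unadjusted P in edgeR was 0.0620 without the library labelled WT3.

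The list of 7 other corepressors and remodelers bound by Ikaros family proteins had 0 genes below 0.05 in either direction by adjusted or unadjusted P of edgeR, DESeq2 or limma voom, and a median log2 fold change of −0.01. By the unadjusted P of edgeR, 9.30% of all tested genes were below 0.05 in either direction. *Smarcc1*, a core subunit of the SWI/SNF remodeler, had 296 ± 14.9 CPM in WT and 300 ± 4.23 CPM in KO iT_regs_ (SD, n = 4 each). *Ctbp1*, a corepressor, had 276 ± 3.83 and 273 ± 6.51 CPM (SD, n = 4 each). The list of 11 enzymes that act on Ikaros family proteins likewise had 0 by each of these, with a median log2 fold change of −0.04, and without the library labelled WT3 it had 1 at an unadjusted P below 0.05 in edgeR. It holds the kinase CK2, the phosphatase PP1 and the ubiquitin ligase through which lenalidomide-type drugs degrade Ikaros and Aiolos. *Ddb1*, an adaptor of that ligase, had 807 ± 18.0 and 810 ± 18.2 CPM (SD, n = 4 each), with a 95% confidence interval of the log2 fold change from −0.07 to 0.08. *Ppp1ca*, a catalytic subunit of PP1, had 575 ± 7.58 and 553 ± 4.03 CPM (SD, n = 4 each), a log2 fold change of −0.06 (adjusted p = 0.695, edgeR quasi-likelihood test, Benjamini-Hochberg adjusted).

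Of 13 genes known to be regulated by Ikaros family factors in lymphocytes, 10 were analysed here and 9 were tested. Their median log2 fold change was 0.08, 0 had an adjusted p below 0.05 by the quasi-likelihood test of edgeR, DESeq2 or limma voom, and 1, *Cd8a*, was lower at an unadjusted P below 0.05 in edgeR, against 4.91% of tested genes. In limma voom 1 other gene, *Il2*, was higher at an unadjusted P of 0.0323 and *Cd8a* had 0.0647, and DESeq2 gave 0 genes but no P for *Cd8a*. With single libraries left out, the median ranged from −0.05, without KO3, to 0.11, without WT2, and so changed sign, and the number at an unadjusted P below 0.05 ranged from 1 to 3. The log2 fold change of *Cd8a* was −2.15 with all libraries and −0.43 (unadjusted P = 0.329, edgeR) without the library labelled WT3. *Myc*, a driver of growth, had 394 ± 24.4 CPM in WT and 418 ± 8.07 CPM in KO iT_regs_ (SD, n = 4 each), a log2 fold change of 0.08 with a 95% confidence interval from −0.01 to 0.18, which was 0.04 without the library labelled WT3. *Bcl2*, a survival factor, had 203 ± 9.06 and 201 ± 14.5 CPM (SD, n = 4 each). *Il2*, the cytokine gene that several members silence, was low, with 0.437 to 1.77 CPM in WT and 1.19 to 2.83 CPM in KO libraries, and the genotypes overlapped (adjusted p = 0.591, edgeR quasi-likelihood test, Benjamini-Hochberg adjusted); it was named after its values were seen.

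The list of 8 T_reg_ genes also had 0 at an adjusted p below 0.05 (quasi-likelihood test of edgeR) and 4 lower at an unadjusted P below 0.05, *Foxp3*, *Il2ra*, *Lrrc32* and *Gpr83*, where 4.91% of all tested genes were lower. DESeq2 gave 1 gene of the list below an adjusted p of 0.05, *Il2ra* (0.0496), where 81 of all genes were below it. With limma voom there were 2, *Foxp3* (0.0416) and *Lrrc32* (0.0274), where 95 of all genes were below it. The median log2 fold change of this list was −0.11. *Lrrc32*, which encodes the receptor that holds latent TGF-β on the cell surface, had 116, 118, 102 and 107 CPM in WT1 to WT4 and 74.3, 100, 99.0 and 67.8 CPM in KO1 to KO4. All KO libraries lay below all controls, replicates 1 and 4 by far the most. Its log2 fold change was −0.38 (adjusted p = 0.102, edgeR quasi-likelihood test, Benjamini-Hochberg adjusted) and without these replicates −0.16; without KO2 its adjusted p in edgeR was 0.00947, the lowest of a range over the alternatives that reached 1.00. *Il2ra*, the receptor chain for interleukin 2, had 2268 ± 78.3 and 2076 ± 67.5 CPM, *Gpr83*, a receptor of T_regs_, had 45.5 ± 3.20 and 37.4 ± 4.99 CPM, and *Ctla4*, an inhibitory receptor, had 564 ± 19.7 and 589 ± 28.7 CPM (SD, n = 4 each). Without KO1 and KO4, the number of T_reg_ genes lower at an unadjusted P below 0.05 was 1, *Lrrc32*.

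**Figure D3:**
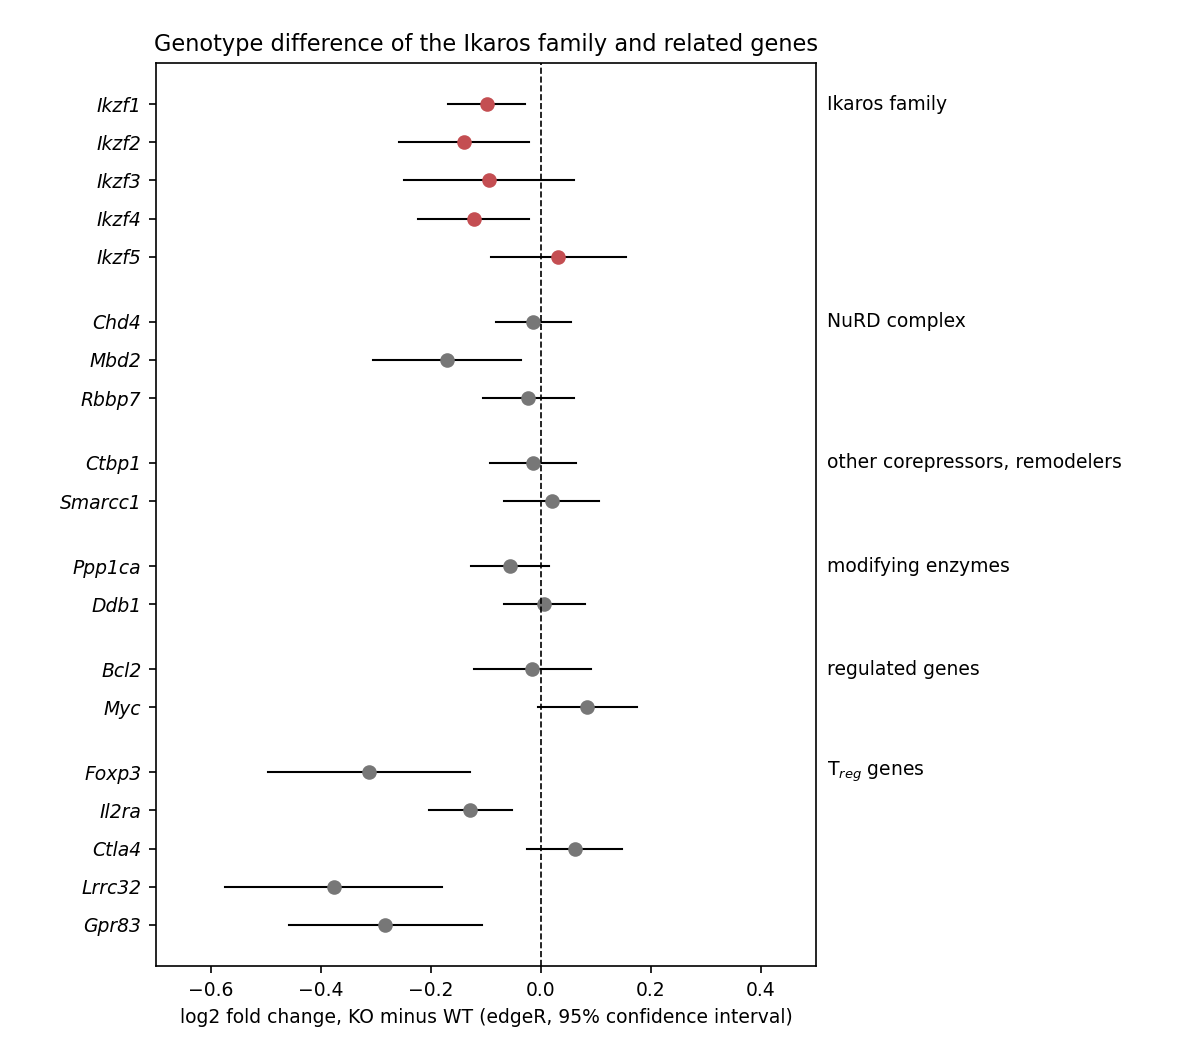
Log2 fold change, KO minus WT, with its 95% confidence interval from edgeR, for the Ikaros family and for named genes of the lists; *Cd8a*, at −2.15, is left out of the range. The intervals of *Ikzf1*, *Ikzf2* and *Ikzf4* lie below 0 and those of *Ikzf3* and *Ikzf5* span it.

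Marker genes were read to see which cells the libraries held. All 8 T cell markers were tested, and *Thy1*, the most abundant of them, was lower in KO iT_regs_, at 989 ± 72.2 and 825 ± 61.6 CPM (SD, n = 4 each), a log2 fold change of −0.26 (adjusted p = 0.0439, edgeR quasi-likelihood test, Benjamini-Hochberg adjusted). All 4 KO libraries lay below all controls for *Thy1*; its adjusted p was 0.00226 with DESeq2 and 0.00811 with limma voom, and in edgeR it was between 0.0585 and 0.267 when any of 6 libraries was left out, that is, each except WT4 and KO2, and 1.00 without KO1 and KO4. Over the 17 alternatives it ranged from 0.00213 to 1.00, below 0.05 in 10. The T cell markers summed to 2930 to 3094 CPM in WT and 2741 to 2887 CPM in KO libraries. With *Cd28* (log2 fold change −0.10), 2 of the 8 were lower at an unadjusted P below 0.05 in edgeR, against 4.91% of tested genes. For *Cd28* the unadjusted P was 0.0353 in edgeR, 0.0329 in DESeq2 and 0.0555 in limma voom. In edgeR it was 0.123 without the library labelled WT3 and 0.203 without KO1 and KO4. Over the 8 markers the log2 fold changes ran from −0.26 to 0.05 with a median of −0.03. The 3 B cell markers analysed here summed to 3.71 CPM in the library labelled WT3 and to 1.09 to 2.97 CPM in the others. *Cd79b* had the highest mean, and *Ms4a1* was not analysed here. In the library labelled WT3 *Pax5*, named after its values were seen, was higher, at 1.61 CPM against 1.54 CPM of *Cd79b*. *Pax5* had 0 to 0.425 CPM in the other libraries. *Cd79b* and *Cd79a* were not highest in the library labelled WT3. There *Cd79b* was lower than in every other WT library. *Cd79a*, also named after its values were seen, had 0.561 CPM there, below WT4, at 0.921 CPM, and KO3, at 0.676 CPM. Of 4 NK cell markers 2 were analysed, led by *Eomes*, with a sum of 3.01 to 4.28 CPM. Of 7 myeloid markers only *Lyz2* was analysed, at 0 in 6 libraries and at 0.653 and 1.22 CPM in KO1 and KO4, and 0 of 4 erythroid markers were analysed here. Of the plasmacytoid dendritic cell markers *Tcf4* alone was analysed, at 8.71 to 11.5 CPM. The CD8 T cell markers *Cd8a* and *Cd8b1* summed to 21.8 CPM in the library labelled WT3 and to 6.68 to 9.93 CPM in the others. Both were lower in KO iT_regs_ at an unadjusted P below 0.05 in edgeR; for *Cd8b1* the log2 fold change was −0.36 (unadjusted P = 0.0391, edgeR), and −0.22 (unadjusted P = 0.198, edgeR) without that library. Whether the levels of *Thy1* and the T cell markers bear on those of the Ikaros family was not tested.

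For each member, the genes with the most similar pattern were found by Pearson's r of log2 CPM over the 8 libraries, among 8772 tested genes of at least 10 CPM outside the family, and 2 or 3 of them are given. The 8 libraries share the difference between genotypes, and with so few points high values of r are common. For *Ikzf1* these were *Chic2* (r = 0.990, Spearman's rho = 0.976), *Capn1*, a calpain protease (0.988, rho = 1.00), and *Kcnk6*, a potassium channel (0.969, rho = 0.929), out of 41 genes with r above 0.9. For *Ikzf4* they were *Tcf20*, a transcriptional coregulator (r = 0.995, rho = 0.929), *Inpp5k*, an inositol phosphatase (0.977, rho = 0.905), and *Trp53rka* (0.956, rho = 0.929), out of 19. The number above 0.9 was 5 for *Ikzf2*, with *Tyw1*, a tRNA-modifying enzyme (r = 0.943, rho = 0.833), *Anapc10*, a subunit of the anaphase-promoting complex (0.927, rho = 0.905), and *Wdr1*, an actin regulator (0.909, rho = 0.810), leading. Without KO2, which was lowest in *Ikzf2*, r with *Wdr1* was 0.719. *Ikzf3* was most like *Cep85*, a centrosomal protein gene (r = 0.955, rho = 0.952), *Akr7a5* (0.950, rho = 0.905) and *Dnpep*, an aminopeptidase gene (0.915, rho = 0.881), and *Ikzf5* most like *Dpy19l4* (0.985, rho = 0.905) and *Miga1*, a mitochondrial protein gene (0.953, rho = 0.952).

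How far the 5 genes can be told apart by reads depends on their sequences. In the annotation, a search of the translated coding sequence of each main transcript for the C2H2 spacing found 6 fingers in each of *Ikzf1* to *Ikzf4*, 4 of them N-terminal, and 5 in *Ikzf5*, 3 of them N-terminal. The second finger, which takes part in DNA binding, is shown. Its 21 residues are the same in *Ikzf1*, *Ikzf2*, *Ikzf3* and *Ikzf4*, and 6 of 21 are the same in the first finger of *Ikzf5*. The coding strand is given 5′ to 3′ from GRCm39, with capitals for the codons of the cysteines and histidines that hold zinc. The stretches are coding sequence of exon 5 in *Ikzf1* (chr11:11704024-11704086, plus strand), *Ikzf2* (chr1:69609740-69609802, minus), *Ikzf3* (chr11:98379766-98379828, minus) and *Ikzf4* (chr10:128476098-128476160, minus), and of exon 3 in *Ikzf5* (chr7:130995488-130995550, minus).
Ikzf1: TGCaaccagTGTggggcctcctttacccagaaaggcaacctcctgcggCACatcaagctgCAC
Ikzf2: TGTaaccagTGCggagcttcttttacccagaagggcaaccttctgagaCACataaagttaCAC
Ikzf3: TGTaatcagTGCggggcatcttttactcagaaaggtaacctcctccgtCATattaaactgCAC
Ikzf4: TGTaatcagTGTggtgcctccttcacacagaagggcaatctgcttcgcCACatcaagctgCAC
Ikzf5: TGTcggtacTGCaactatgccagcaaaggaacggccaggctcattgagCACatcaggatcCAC
Although these residues are the same, 12 of the 63 bases differ from *Ikzf1* in *Ikzf2*, 12 in *Ikzf3* and 10 in *Ikzf4*, and 34 differ in *Ikzf5*. Over all annotated transcripts, no 2 members shared a stretch of 50 bases, and the longest identical run, between *Ikzf2* and *Ikzf4*, was 32 bases. All 8 estimated counts of *Ikzf2* and *Ikzf3* were whole within 0.01, but 1 of 8 was whole for *Ikzf1*, 2 for *Ikzf4* and 0 for *Ikzf5*. The source of these fractions was not tested. On the opposite strand, exons of *Gm29114* overlap those of *Ikzf2*, *Gm73448* those of *Ikzf3*, *Gm26876* those of *Ikzf4*, and *Gm44624* and *Pstk* those of *Ikzf5*, and no exon overlaps those of *Ikzf1*. Use of strand in counting is not stated, so reads within the overlapping stretches may not have been told apart. The length of these stretches was not measured. *Pstk*, which modifies selenocysteine tRNA and was named after its values were seen, had 19.1 to 22.2 CPM. Totals per gene also do not separate splice forms, among which Ikaros and Helios are known to have some without DNA-binding fingers.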

How the data were processed

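RNA-seq libraries of 4 *Foxp3 YFP-Cre* (WT) and 4 *Tdrd3 fl/fl/Foxp3 YFP-Cre* (KO) iT_reg_ cultures were grouped by their labels. The authors aligned reads to GRCm39 with STAR 2.7.8a and deposited estimated counts per gene, obtained in Partek Flow by its E/M method, filtered and not normalized. Here these were rounded to whole numbers, filtered with filterByExpr (minimum count 10), normalized by TMM and tested for genotype with edgeR 4.0.16 in R 4.3.3 (quasi-likelihood F-test, two-sided, Benjamini-Hochberg over 11317 genes). Alternatives used DESeq2 1.42.0, limma 3.58.1, other filters and factors, the replicate number as a block, and left-out libraries. Exact permutation tests used log2(CPM + 0.5). Exon lengths came from GENCODE annotation of GRCm39, and 11910 of 11911 gene identifiers matched. Replicates were distinct, with a chi-square per degree of freedom of at least 2.59. In simulated counts, 94% of genes given a 2-fold difference were recovered, and 13 of 186 calls were false. Every member differed by far less than 2-fold, so this recovery does not apply to the members. The counts were drawn independently for each library, without likeness such as that of KO1 and KO4. The genes named are the members, *Tdrd3* and *Foxp3*; in each list those with unadjusted P below 0.05 and the 2 of highest mean CPM; the most abundant of each marker list; and 2 or 3 of those most like each member. Members and lists were chosen with earlier results of these data known.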

Additional observations from a re-analysis of the deposited data

Results flagged for a closer look

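In *Ikzf4*, KO3, at 233 CPM, lay far from the other 3 KO libraries: its gap to the nearest of them was 0.853 of the range of the 4, above the 95% critical value of Dixon's test for 4 samples. In *Cd8a*, the library labelled WT3, at 11.3 CPM, was 0.952 of the range away from the nearest control. The same measure was taken in 18 groups of 4 libraries. These were both genotypes for the 5 members, *Tdrd3*, *Foxp3*, *Cd8a* and the total counts, and chance marks about 1 in 20 such groups. That rate does not apply to *Cd8a*, whose level had already set the library labelled WT3 apart above.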

How the results depend on the processing

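Under 17 alternatives, the log2 fold changes of *Ikzf1*, *Ikzf2*, *Ikzf3* and *Ikzf4* stayed below 0 and that of *Ikzf5* above 0, and none of the 5 had an adjusted p below 0.05. The number of genes below that threshold was 30 and depended on the test, at 81 with DESeq2, 95 with limma voom and 3 without KO1 and KO4; leaving out single libraries gave 6 (without KO1) to 162 (without KO2). The number of members lower at an unadjusted P below 0.05, 3 with all libraries, was 1 to 3 with single libraries left out and 1 without KO1 and KO4. Over all tested genes, those at that P with a fold change of at least 1.2 numbered 393, 302 to 530 and 235 in these fits. That cutoff is stricter, so these numbers give no share to set beside the numbers of members. With the replicate number as a block, as for paired samples, 87 genes had an adjusted p below 0.05, 0 of them members. Same-numbered libraries came from different mice, and the correlations of their deviations, −0.05, 0.00, −0.04 and 0.07 for numbers 1 to 4, do not pair them. In this fit *Foxp3* and *Lrrc32* had adjusted p-values of 0.0161 and 0.0178.

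Small differences changed sign: with single libraries left out the log2 fold change of *Ddb1* ranged from −0.0077 to 0.021, of *Smarcc1* from −0.013 to 0.037, of *Bcl2* from −0.051 to 0.019 and of *Cd79b* from −0.36 to 0.0055. Without KO1 and KO4 it was −0.018 for *Ddb1*, 0.069 for *Bcl2* and 0.071 for *Cd79b*, and the difference of the log2 ratio of *Ikzf2* to *Foxp3* was −0.056. The cause was not tested. The alternatives for ratios to *Foxp3* and for r were chosen after seeing the data. With 4 libraries a genotype, the median standard error of a log2 fold change was 0.0738, which limits what could be seen in genes as close between genotypes as these.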
